A study of Mus musculus with 9 samples.

Results

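Levels of 10 genes of T cells and cytotoxic lymphocytes were followed in mouse prostate tumours and their metastases. The members were a list of named genes, found by matching mouse symbols to the Ensembl identifiers of the count tables: Cd3d, Cd3e, Cd3g, Cd247, Cd4, Cd8a, Cd8b1, Lck, Gzmb and Nkg7. All 10 were present among the 47069 gene rows. Bulk RNA was sequenced from 9 libraries, 3 of primary prostate tumours, 3 of proximal metastases taken from the epididymal fat and 3 of distal metastases. The distal site is given as diaphragm under tissue but as lung in the growth protocol. Every group came from C57BL/6 mice of about 9 to 10 months, and all of them carried Ctnnb1 with exon 3 deleted from 1 allele in the prostate, among other engineered changes, so there was no group without the model. Loss of this exon stabilises beta-catenin, and the promoter that drives the deletion is not named in the labels. The samples are described as 3 matched sets, but not which of them share a mouse, so the comparisons were unpaired and the p-values measure only the spread between these samples.

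T cells recognise antigen through a receptor whose variable chains signal through the CD3 chains, encoded by Cd3d, Cd3e, Cd3g and Cd247. The coreceptors CD4 and CD8 bind the antigen-presenting molecules and bring the kinase LCK to the receptor, where it phosphorylates the CD3 chains. Cytotoxic T cells and natural killer cells then kill target cells by releasing granules that hold granzymes such as the product of Gzmb, and NKG7 is a membrane protein of those granules. In solid tumours these transcripts come mainly from infiltrating lymphocytes, and they form a small part of RNA from a whole piece of tissue. In such bulk RNA, fewer lymphocytes and less RNA per lymphocyte cannot be told apart.

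Several of the members lie beside each other in the genome (GRCm38). Cd3g (chromosome 9, 44969572 to 44980431, minus strand) and Cd3d (44981786 to 44987339, plus strand) are transcribed away from each other from starts 1355 bases apart, and Cd3e (44998740 to 45009627, minus strand) follows in the same 40.1 kb stretch. Cd8b1 (chromosome 6, 71322788 to 71337494) lies 35.9 kb before Cd8a (71373427 to 71379173), both on the plus strand. Gzmb (chromosome 14, 56258838 to 56262260, minus strand) is at the end of a granzyme cluster. The promoter windows of the 3 clustered CD3 genes and of Gzmb are shown. The CD3 genes were high in both primary 3 and proximal 2, whereas Gzmb was 18.5 times as high in primary 3 as in proximal 2, its second library. Each window is the 250 bases before the RefSeq gene start (GRCm38.p6), 5′ to 3′ on the gene's strand, with matches to any of 4 searched motifs in capitals.
Cd3d, chr9:44981536-44981785, plus strand: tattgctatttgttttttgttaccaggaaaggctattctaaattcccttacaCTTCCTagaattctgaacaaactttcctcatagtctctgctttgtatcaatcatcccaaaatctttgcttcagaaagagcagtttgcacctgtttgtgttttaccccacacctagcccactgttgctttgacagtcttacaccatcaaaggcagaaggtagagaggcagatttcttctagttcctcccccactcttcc
Cd3g, chr9:44980432-44980681, minus strand: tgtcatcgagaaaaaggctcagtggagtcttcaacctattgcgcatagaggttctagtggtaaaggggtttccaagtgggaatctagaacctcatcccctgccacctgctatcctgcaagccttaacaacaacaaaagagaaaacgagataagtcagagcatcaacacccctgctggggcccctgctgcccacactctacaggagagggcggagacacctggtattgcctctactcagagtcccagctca
Cd3e, chr9:45009612-45009861, minus strand: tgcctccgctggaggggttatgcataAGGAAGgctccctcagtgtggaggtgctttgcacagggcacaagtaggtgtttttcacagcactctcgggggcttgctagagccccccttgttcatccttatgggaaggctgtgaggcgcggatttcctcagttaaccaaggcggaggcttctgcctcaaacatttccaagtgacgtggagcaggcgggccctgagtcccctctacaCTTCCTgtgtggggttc
Gzmb, chr14:56262335-56262584, minus strand: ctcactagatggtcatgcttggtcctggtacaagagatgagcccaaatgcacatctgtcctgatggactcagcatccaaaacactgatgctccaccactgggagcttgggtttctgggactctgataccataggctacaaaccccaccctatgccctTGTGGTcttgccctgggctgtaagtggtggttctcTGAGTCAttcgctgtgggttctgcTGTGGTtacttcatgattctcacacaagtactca

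The motifs were short core sequences of 4 classes of factor used in lymphocytes, searched on both strands: RUNX (TGTGGT), ETS (AGGAAG), AP-1 (TGAGTCA) and E-box (CAGCTG). No matched bases overlapped. Distances count from the RefSeq start, which for 2 of these minus-strand genes differs from the positions given above. For Gzmb the window borders the start at 56262335, while the gene above reaches 56262260. For Cd3e it borders the start at 45009612, inside the gene above, which reaches 45009627. The Gzmb window held RUNX matches starting 93 and 34 bases before the gene start and an AP-1 match at 58 bases. In the Cd3e window there were ETS matches at 224 and 17 bases, the second on the opposite strand. For Cd3d there was 1 ETS match on the opposite strand, 198 bases before the start, and for Cd3g there was none. Among all 32851 RefSeq promoter windows of this length, 14.0% held the RUNX letters, 29.5% the ETS letters, 4.46% the AP-1 letters and 13.0% the E-box letters. These are letter matches and were not tied to binding of any factor. A window was listed for 8 of the 10 members, and Cd4 and Cd8b1 were without one.

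Total counts ran from 28334730 in primary 3 to 40408723 in distal 2, so that 1 count in a library was worth 0.0238 to 0.0390 CPM (counts scaled to the library size after TMM normalisation). Some libraries stood apart before any lymphocyte gene was considered. Primary 3 held 7492 CPM of 4 seminal vesicle genes, against 2.2 to 25.3 CPM in the other 8 libraries. Primary 2 held 10606 CPM of 8 prostate epithelial genes, against 1742 to 4318 CPM elsewhere, and had the lowest scaling factor, 0.796. Distal 2 and distal 3 held 559 and 775 CPM of 7 skeletal muscle genes, and distal 1 held 4.55 CPM. Primary 1 was nearer to the metastases than to the other primary tumours: the chi-square statistic per gene between the counts of 2 libraries was 42.8 to 73.0 for primary 1 with each metastasis, against 740 with primary 2 and 302 with primary 3. Without primary 1, edgeR called 5447, 5203 and 6616 of 19009 genes in proximal, distal and all metastases against primary, where 9, 16 and 676 of 18204 were called with all 9 libraries. The fits without primary 1 called 14.9%, 14.1% and 18.6% of all genes lower. Lung epithelial markers were low in all distal libraries (1.43 to 1.72 CPM summed over 6 genes), and Sftpc, which marks alveolar cells, reached at most 0.0749 CPM there. Ctnnb1, the engineered gene, is counted over the whole gene (chromosome 9, 120929216 to 120960507), so its level does not check the loss of 1 exon. It stood at 4393, 936 and 1769 CPM in primary 1, 2 and 3 and at 3549 to 4955 CPM in the metastases.

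All 10 members were present at low levels. Of the 90 values (10 genes in 9 libraries), 31 were above 1 CPM and 2 were at 0 counts, both for Gzmb. Summed over the 10 members, primary 1, 2 and 3 held 5.74, 12.5 and 29.9 CPM, proximal 1, 2 and 3 held 2.87, 18.4 and 1.76 CPM, and distal 1, 2 and 3 held 2.05, 3.40 and 4.40 CPM. Primary 3 and proximal 2 were thus the highest libraries, primary 2 came next, and proximal 2 was far above the other metastases of its own group. For 8 of the 10 members, primary 3 and proximal 2 were the 2 highest of the 9 libraries. The exceptions were Cd3g and Nkg7, for which primary 2 was second to primary 3. Over all 18204 genes tested, 586 (3.22%) had that pair on top. The pair was picked from the members' own sums, which favours the members in advance, so setting these shares side by side is not a test. The members share these libraries and are not independent measurements of them.

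**Figure D1:**
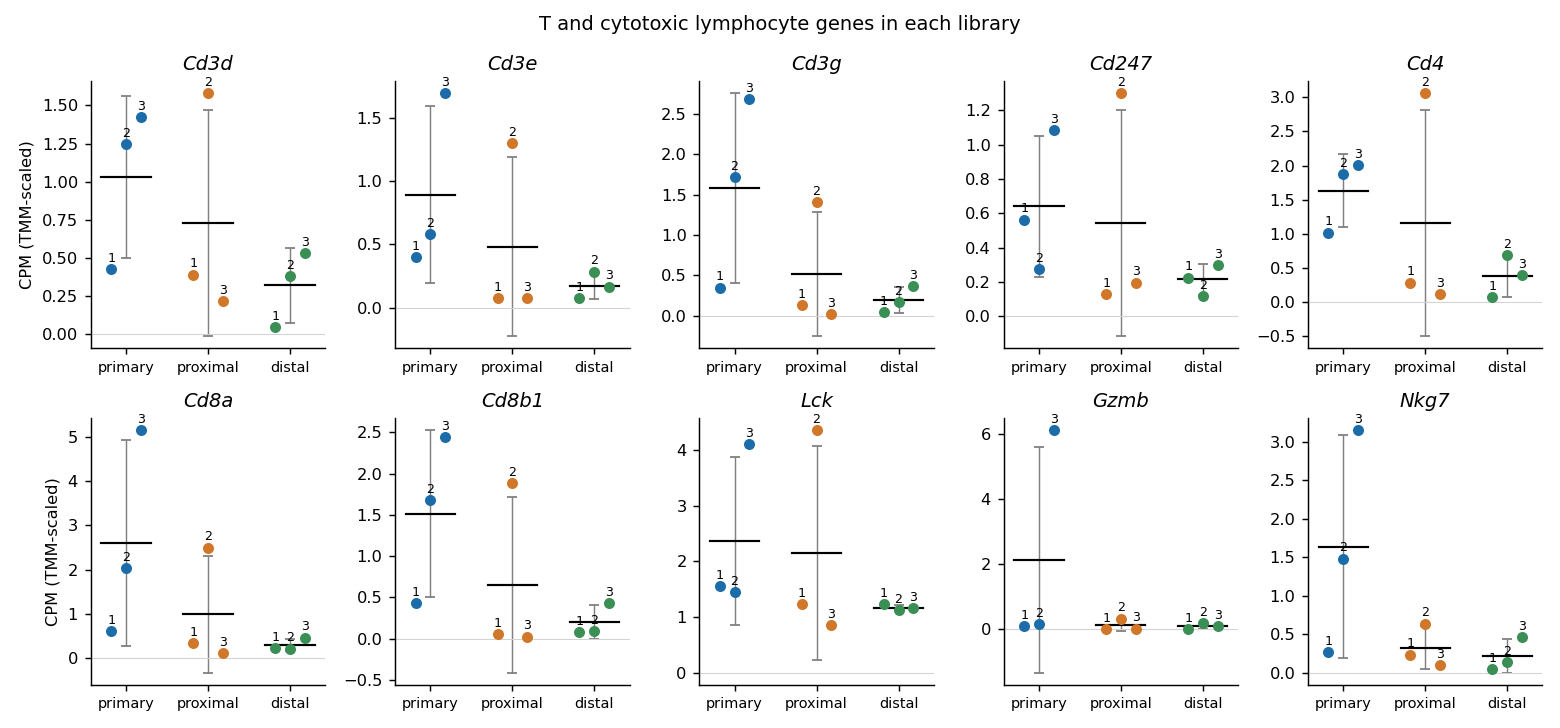
Level of each of the 10 member genes in CPM (counts scaled to library size, linear axis that differs between panels) in the 3 primary, 3 proximal and 3 distal libraries. Points are single libraries with their number, the black line is the group mean and the grey bar is ± 1 SD (n = 3), which can extend below 0. Proximal 2 lies above the other 5 metastatic libraries in every panel, and primary 3 is the highest primary library in every panel.

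The CD3 chain genes encode the signalling subunits that every T cell needs to bring its receptor to the surface. Cd3d, the delta chain, stood at 0.429, 1.25 and 1.42 CPM in primary 1, 2 and 3, at 0.391, 1.58 and 0.220 CPM in proximal 1, 2 and 3, and at 0.0499, 0.381 and 0.533 CPM in distal 1, 2 and 3. Cd3e, the epsilon chain, stood at 0.402, 0.585 and 1.70 CPM in the primary, at 0.0782, 1.30 and 0.0733 CPM in the proximal and at 0.0749, 0.285 and 0.166 CPM in the distal libraries. Its distal values were all below its primary values, whereas proximal 2 fell inside the primary range and the other proximal libraries fell below it. Those other proximal libraries and distal 1 each held 3 counts of Cd3e, so at this depth they could not be ordered among themselves. Cd3e shares 135 exon bases with an antisense gene, Gm48719, and the strand setting of the counting is not given in the sources used here.

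Cd3g, the gamma chain, had values of 0.349, 1.72 and 2.68 CPM in primary 1, 2 and 3, of 0.130, 1.40 and 0.0244 CPM in proximal 1, 2 and 3, and of 0.0499, 0.167 and 0.366 CPM in distal 1, 2 and 3. Primary 2 exceeded proximal 2 for this chain, unlike for Cd3e. Cd247, which encodes the zeta chain (chromosome 1, 165788681 to 165877277), had 0.563, 0.273 and 1.09 CPM in the primary, 0.130, 1.30 and 0.196 CPM in the proximal and 0.225, 0.119 and 0.300 CPM in the distal libraries. Its primary and distal values overlapped, because primary 2 held less than distal 3. Of its exon bases 56.4% are shared with Pou2f1, a broadly expressed gene on the other strand, so its counts are uncertain. Summed over the 4 chains, the level was 4.15 ± 2.59 CPM in the primary, 2.28 ± 2.87 CPM in the proximal and 0.905 ± 0.484 CPM in the distal libraries (SD, n = 3 each). The proximal SD was larger than the proximal mean.

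CD4 marks helper and regulatory T cells and is also made by some myeloid cells. Cd4 (chromosome 6, 124864692 to 124888221, minus strand) was at 1.02, 1.87 and 2.0 CPM in primary 1, 2 and 3, at 0.287, 3.06 and 0.122 CPM in proximal 1, 2 and 3, and at 0.0749, 0.690 and 0.400 CPM in distal 1, 2 and 3. The highest value of all 9 libraries was that of proximal 2, and all distal values were below all primary values. Cd8a, the alpha chain of CD8, stood at 0.617, 2.03 and 5.15 CPM in the primary, at 0.339, 2.50 and 0.122 CPM in the proximal and at 0.225, 0.214 and 0.466 CPM in the distal libraries. Here primary 3 was highest, and again no distal value reached the lowest primary value. Cd8b1, the beta chain found with the alpha chain on conventional cytotoxic T cells, stood at 0.429, 1.68 and 2.44 CPM in the primary, at 0.0522, 1.89 and 0.0244 CPM in the proximal and at 0.0749, 0.0952 and 0.433 CPM in the distal libraries. Distal 3 and primary 1 were nearly equal for Cd8b1, at 13 and 16 counts, so those groups touched.

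Compared per length of exon sequence, the coreceptor genes stood in different proportions in different libraries. The ratio of Cd4 to Cd8a was 0.350 in primary 3 (exact 95% interval 0.255 to 0.476, from 59 and 152 counts) and 1.10 in proximal 2 (0.839 to 1.46, from 120 and 98 counts). These intervals, which cover counting error only, did not overlap, so the 2 libraries with the highest CD3 levels differed in their balance of coreceptor transcripts. In primary 1 the ratio was 1.49 (0.865 to 2.62), in primary 2 it was 0.833 (0.551 to 1.26), and in distal 2 it was 2.91 (1.34 to 6.98). The other metastatic libraries held 3 to 14 counts of either gene, and the narrowest of their intervals ran from 0.327 to 1.80, in distal 3. The ratio of Cd8b1 to Cd8a was 1.16 (0.865 to 1.55) in primary 3, 1.85 (1.35 to 2.53) in proximal 2 and 2.03 (1.32 to 3.10) in primary 2, with intervals that overlapped. No group comparison was made on these ratios.

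LCK is the kinase that starts signalling from the T cell receptor. Lck (chromosome 4, 129548344 to 129573641, minus strand) was at 1.56, 1.44 and 4.10 CPM in primary 1, 2 and 3, at 1.23, 4.36 and 0.856 CPM in proximal 1, 2 and 3, and at 1.22, 1.12 and 1.17 CPM in distal 1, 2 and 3. It was the member with the most even background: outside primary 3 and proximal 2 it kept between 0.856 and 1.56 CPM, and it was the only member above 1 CPM in any of the metastatic libraries other than proximal 2. Per length, the ratio of Lck to Cd3e was 3.37 to 5.39 in the primary libraries and 4.67 in proximal 2 (exact interval 3.40 to 6.52). It was 21.8 (7.02 to 110) in proximal 1, 16.3 (5.12 to 82.6) in proximal 3 and 22.8 (7.34 to 114) in distal 1. In distal 2 it was 5.46 (2.85 to 11.3), near the primary level, and in distal 3 it was 9.75 (3.80 to 31.9). Lck was thus higher for its amount of Cd3e in proximal 1 and distal 1 than in proximal 2, beyond counting error. The intervals of proximal 3, distal 2 and distal 3 overlapped that of proximal 2. This holds for Cd3e alone, which was at 3 counts in proximal 1 and distal 1. Against Cd3d, Lck had 47 to 15 counts in proximal 1, near the 171 to 62 counts in proximal 2. In distal 1 these were 49 to 2 counts. Whether Lck exceeded the other CD3 chains was not tested.

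Granzyme B is a serine protease that triggers death of the target cell. Gzmb had 4, 4 and 181 counts in primary 1, 2 and 3, 0, 13 and 1 counts in proximal 1, 2 and 3, and 0, 8 and 3 counts in distal 1, 2 and 3. Primary 3, at 6.14 CPM (exact Poisson interval 5.28 to 7.10), held most of the transcript of the whole series, and proximal 2 followed at 0.331 CPM (0.176 to 0.567). Taking 3 counts as the limit that a count of 0 allows, these libraries could hold up to 0.0782 CPM (proximal 1) and 0.0749 CPM (distal 1), for counting error only. Relative to Cd3e per length, Gzmb was at 10.3 (7.48 to 14.4) in primary 3, at 0.724 (0.361 to 1.35) in proximal 2 and at 0.758 (0.183 to 2.38) in each of primary 1 and primary 2. Primary 3 and proximal 2 had similar levels of Cd3e, with Poisson intervals of 1.26 to 2.24 and 0.968 to 1.71 CPM, and yet differed in Gzmb.

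Nkg7 (chromosome 7, 43437073 to 43438249, plus strand), the other cytotoxic granule gene, was measured at 0.268, 1.48 and 3.15 CPM in primary 1, 2 and 3, at 0.235, 0.637 and 0.0978 CPM in proximal 1, 2 and 3, and at 0.0499, 0.143 and 0.466 CPM in distal 1, 2 and 3. Proximal 2 was highest among the metastases for this gene too, but below primary 2 and primary 3. Per length, Nkg7 to Cd3e was 8.30 (5.83 to 12) in primary 3, 11.3 (6.08 to 22.1) in primary 2 and 2.19 (1.30 to 3.60) in proximal 2. Both granule genes were thus lower for their amount of Cd3e in proximal 2 than in primary 3, beyond counting error.

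Levels of the members were also ordered per kilobase within each group. In the primary tumours Nkg7 led at 1.79 ± 1.59 RPKM (CPM per kilobase of exon, SD, n = 3), followed by Gzmb at 1.49 ± 2.41, Cd8b1 at 1.02 ± 0.685, Lck at 0.808 ± 0.514 and Cd8a at 0.715 ± 0.638. The place of Gzmb rests on primary 3, since it stood at 0.0747, 0.109 and 4.27 RPKM in primary 1, 2 and 3. The lowest were Cd3e at 0.219 ± 0.172 RPKM and Cd247 at 0.120 ± 0.0772 RPKM. The length is the union of all annotated exons, 4080 bases for Cd3e and 5329 for Cd247, and may exceed that of the transcripts made. Cd247 also shares 56.4% of its exon bases with Pou2f1, so the place of these 2 genes is uncertain. In the proximal metastases Lck led at 0.733 ± 0.657 RPKM, and in the distal metastases Lck led at 0.399 ± 0.0181 RPKM, ahead of Nkg7 at 0.240 ± 0.239. Each pair of neighbours named here differed by less than the larger of their SDs.

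The first comparison asked whether the lymphocyte genes differed between the proximal metastases and the primary tumours. No member had its proximal values all below its primary values, where 10.7% of all tested genes did, since proximal 2 lay above the primary range for Cd3d, Cd247, Cd4 and Lck and within it for the other 6. Of the members, 9 passed the filter on low counts and were tested, and Gzmb did not pass. By edgeR's quasi-likelihood test 0 of the 9 were called at an adjusted p below 0.05, where 0.0494% of all tested genes were called, and 0 of them had an unadjusted p below 0.05, against 18.2% of all. The log2 fold changes ran from -0.14 (SE 0.67, adjusted p = 0.899) for Lck to -2.32 (SE 1.06, adjusted p = 0.289) for Nkg7. Their median was -0.88, against -0.049 over all genes, and all 9 were negative, as were 52.8% of all genes. This median depends on single libraries, with 0 calls in each fit: it was -3.25 without proximal 2, -0.31 without primary 3 (7 of 9 negative), -0.52 without proximal 1 (8 of 10) and -0.49 without proximal 3 (7 of 10). The median was -1.43 without primary 1, where all 10 were negative and 0 were called, while 14.9% of all genes were called lower. The other fits named here called 0, 2, 0 and 0 of all genes, in the order given.

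For the distal metastases the same question gave larger differences in level, which also missed the threshold. Cd3e, Cd4, Cd8a and Lck had every distal value below every primary value, 4 of the 10 members, where 10.4% of all tested genes were separated in that direction. In edgeR's test 0 of the 9 tested members were called (0.0879% of all genes), and Cd8a and Nkg7 had an unadjusted p below 0.05 (17.4% of all genes). The log2 fold change was -3.11 (SE 1.19, adjusted p = 0.250) for Cd8a and -2.92 (SE 1.11, adjusted p = 0.248) for Nkg7. Cd4 had -2.06 (SE 1.18, adjusted p = 0.360) and Lck, the member with the smallest difference, had -1.02 (SE 0.68, adjusted p = 0.404). All 9 estimates were negative (52.0% of all genes), with a median of -2.32 against -0.032 over all genes. Without primary 1, Nkg7 was called (log2 fold change -3.41, SE 0.99, adjusted p = 0.0420 by edgeR). That is 1 of 10 members in a fit that called 14.1% of all genes lower, and no other member was called in any of the 9 fits that left out 1 library.

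**Figure D2:**
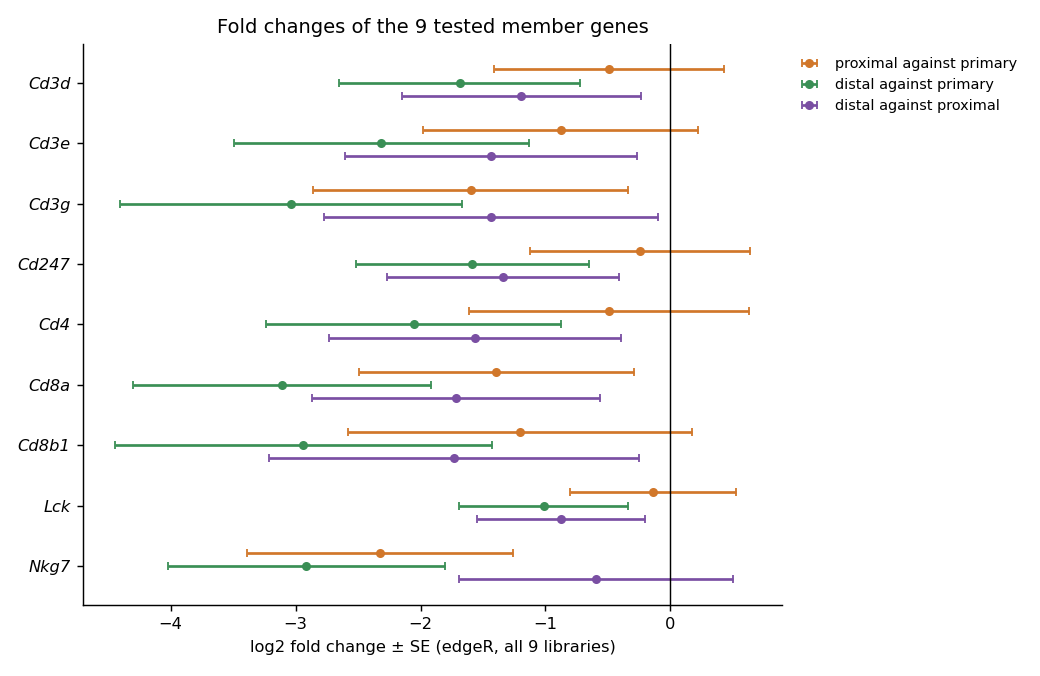
Log2 fold change (horizontal axis, edgeR fit on all 9 libraries) of the 9 member genes that passed the filter on low counts, for 3 comparisons. Points are estimates and bars are ± 1 SE, and the vertical line marks no difference. Every estimate lies below 0, from -0.14 for Lck in proximal against primary to -3.11 for Cd8a in distal against primary. The comparisons share libraries and are not independent.

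Distal and proximal metastases were compared next. No group was separated from the other for any member, where 3.60% of all genes were lower in every distal library. By edgeR 0 of the 9 tested members were called, and 0% of all genes, and the members' adjusted p values were all 1.0. At an unadjusted p below 0.05 the edgeR test had 0 of the 9 members and 375 genes (2.06%), while DESeq2 called 83 genes and 0 members. The log2 fold changes, distal minus proximal, ran from -0.59 (SE 1.10) for Nkg7 to -1.73 (SE 1.48) for Cd8b1, with a median of -1.44, and all 9 were negative, as were 52.8% of all genes. Their direction was set by 1 library. Without proximal 2 all 9 estimates were positive, from 0.054 for Cd3d to 2.25 for Cd8b1, with a median of 0.37. That fit again called 0 members, and 0 of 18988 genes.

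**Figure D3:**
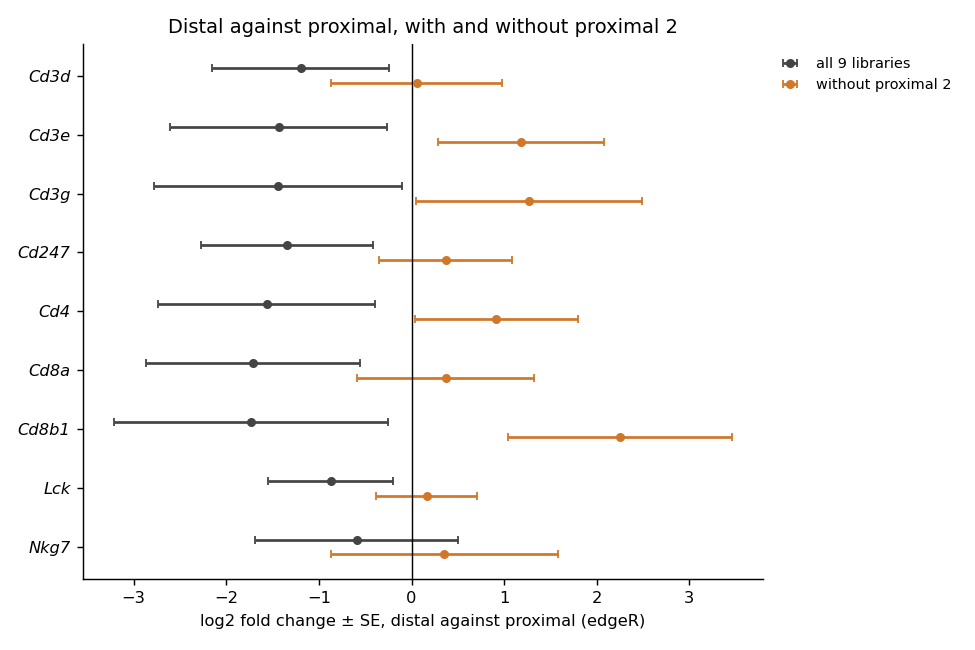
Log2 fold change of the 9 tested members in distal against proximal metastases (horizontal axis, edgeR), with all 9 libraries in dark grey and without proximal 2 in orange. Bars are ± 1 SE. All 9 estimates lie below 0 with proximal 2 and above 0 without it.

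With the mean of the proximal and distal groups set against the primary tumours, 0 of the 9 tested members were called by edgeR, where 3.71% of all genes were. The samples were matched, so the 6 metastatic libraries may not be independent. Nkg7 had the lowest adjusted p, 0.129, with a log2 fold change of -2.62 (SE 0.86), and was below primary 2 and primary 3 in 6 of 6 metastatic libraries, of which proximal 2 and distal 3 exceeded primary 1. For Cd8a the log2 fold change was -2.25 (SE 0.91, adjusted p = 0.185). These 2 had an unadjusted p below 0.05, as did 24.6% of all genes. All 9 estimates were negative (52.6% of all genes), and no member had all 6 metastatic values below the primary ones, where 5.99% of all genes did. DESeq2 called Nkg7 (log2 fold change -2.67, SE 0.94, adjusted p = 0.0356), 1 of 9 members, where it called 11.6% of all genes lower. Without primary 1, edgeR called Nkg7 (-3.11, SE 0.78, adjusted p = 0.0213) and Gzmb, which then passed the filter (-4.82, SE 1.39, adjusted p = 0.0340). These are 2 of 10 members in a fit that called 18.6% of all genes lower, and the 2 primary libraries left held 4 and 181 counts of Gzmb. Leaving out primary 3 and proximal 2 together, a choice made after seeing the data, gave 0 calls of members. The medians were -2.49, -1.88, 0.37 and -2.18 for the 4 comparisons in the order given, in fits that called 0, 0, 0 and 15 of 18440 genes.

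The members varied together across the 9 libraries. Over their 45 pairs, Pearson's r of log2(CPM + 0.5) ran from 0.541 for Cd4 with Gzmb to 0.987 for Cd3g with Cd8b1, with a median of 0.845. Without primary 3 and proximal 2 it ran from 0.187 for Cd247 with Gzmb to 0.985 for Cd3g with Cd8b1, with a median of 0.755. The points of each pair share libraries and depth, so these values are descriptions. By the rule of the highest Pearson's r with the mean log2 level of the 4 CD3 chains over 9 libraries, among 14903 genes with a mean of at least 1 CPM, genes among the most alike were Gimap3 (0.968), Rasal3 (0.960), Card10 (0.958) and Rhoh (0.956). Gimap3 encodes a lymphocyte GTPase and stood at 4.78 CPM in primary 3 and 4.89 CPM in proximal 2, against 0.249 to 1.10 CPM in the other metastases. Card10 was far more abundant, at a mean of 34.6 CPM, and spanned only 26.4 to 50.1 CPM.

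Other genes of the T cell receptor and its signalling chain mostly followed the CD3 genes. Of 20 listed genes, 16 had primary 3 and proximal 2 as their 2 highest libraries. Among those 16, named here after their values were seen, Trac, the constant part of the receptor's alpha chain, stood at 2.44 and 2.78 CPM in these libraries and at 0.125 to 0.975 CPM in the other 7. The 4 exceptions were also the most abundant genes of the list: Prkcq, Zap70, Fyn and Lcp2. Prkcq encodes protein kinase C theta and stood at 144, 12.7 and 26.2 CPM in primary 1, 2 and 3, at 141, 184 and 267 CPM in proximal 1, 2 and 3, and at 153, 194 and 159 CPM in distal 1, 2 and 3. Zap70, the kinase recruited to the phosphorylated CD3 chains, was lowest in primary 3 at 8.71 CPM and reached 33.4 CPM in distal 2. In proximal 1 and proximal 3, where Cd3e was at 3 counts, Zap70 was at 20.1 and 31.4 CPM. Of the 17 list genes tested, 0 were called in any of the 4 comparisons with all 9 libraries. Without primary 1, 2 of 18 were called higher, and 0 lower, in each of the 3 comparisons against primary. For proximal, distal and all metastases, those fits called 5447, 5203 and 6616 of 19009 genes. Of these genes 2825, 2687 and 3535 were lower and the rest higher.

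**Figure D4:**
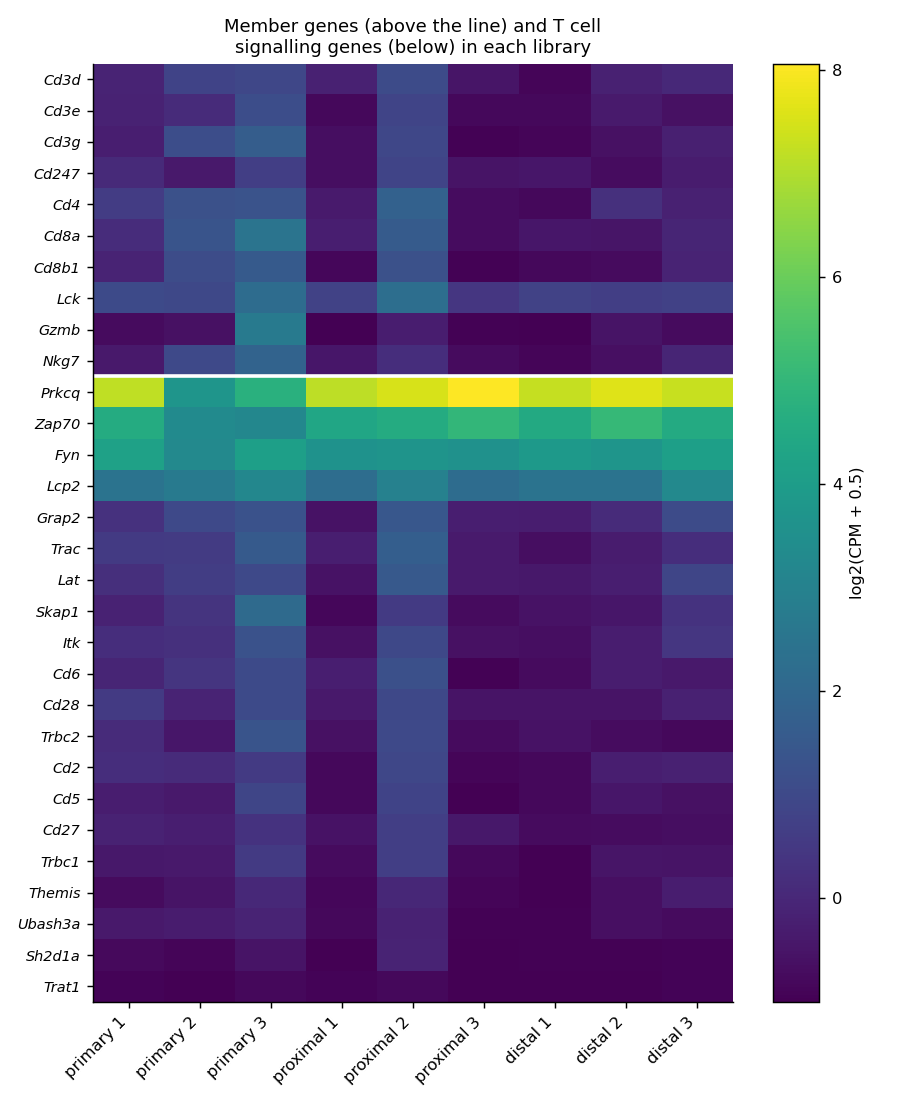
Colour shows log2(CPM + 0.5) of each gene (rows) in each library (columns), with the 10 members above the white line and 20 T cell receptor and signalling genes below it in order of mean level. The members and most signalling genes are brightest in primary 3 and proximal 2, whereas Prkcq and Zap70 are high in the metastases and in primary 1.

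Most cytotoxic effectors other than the members were highest in primary 3. Of 14 listed genes, 12 had their highest value there. The share of all tested genes that were highest in a given library was not computed, here or for the lists below. Primary 3 differed widely from every other library, with a chi-square per gene of 291 to 391. Gzma, granzyme A, stood at 0.670, 4.56 and 15.4 CPM in primary 1, 2 and 3 and at 0.233 to 1.05 CPM in the metastases, and Ccl5, a chemokine of activated T cells, stood at 5.43 CPM in primary 3 and 3.54 CPM in proximal 2. Srgn, the proteoglycan of secretory granules, was the most abundant of the list and was highest in distal 3, at 139 CPM. Of the genes in the Gzmb cluster (chromosome 14, 56117626 to 56262260), Gzmc, Gzmd, Gzme and Gzmf were summed, because related sequences can make single counts uncertain. Their sum was highest in the same library as Gzmb, with 20, 43 and 488 counts in primary 1, 2 and 3 and 1 to 10 counts in each metastasis. Of the 6 list genes tested, 0 were called in any comparison with all 9 libraries. Without primary 1, when 9 were tested, 3, 4 and 5 were called lower in proximal, distal and all metastases against primary, in fits that called 14.9%, 14.1% and 18.6% of all genes lower.

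Transcription factors of the T lineage did not follow the members as a list. Tcf7 and Lef1, which act in T cells and also downstream of beta-catenin, were abundant, at 298 to 366 and 54.3 to 68.1 CPM in the metastases and at 47.5 and 7.14 CPM in primary 2. Gata3 and Zbtb7b, also known from epithelia, were highest in primary 2, at 494 and 293 CPM. The single call among 11 tested was Tox, a factor of activated and exhausted T cells that other cells also use. Tox was lower in the mean of the proximal and distal groups than in primary (log2 fold change -4.26, SE 0.77, adjusted p = 0.0302 by edgeR). Its level was 1.96, 3.47 and 10.4 CPM in primary 1, 2 and 3 and 0.0489 to 0.637 CPM in the 6 metastases. In 7 of the 9 fits that left out 1 library (all but those without primary 1 and without proximal 2), the list held 0 calls. Checkpoint and costimulatory receptors had 0 calls among 11 tested, with summed levels of 11.6, 21.7 and 28.9 CPM in primary 1, 2 and 3, 7.88, 18.8 and 8.44 CPM in proximal 1, 2 and 3, and 9.57 to 13.5 CPM in the distal libraries. T cell trafficking genes had 0 calls among 10 tested. These counts are for all 9 libraries. Without primary 1, for metastases against primary, 5 transcription factors of 13 tested were called lower and 2 higher, as were 2 and 0 of 12 checkpoint genes and 1 and 1 of 10 trafficking genes. That fit called 6616 of 19009 genes, 3535 of them lower and the rest higher.

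Markers of other blood cells were read in the same libraries. Natural killer and gamma-delta T cell markers summed to 2.2 to 13.9 CPM in the primary, 0.856 to 4.69 CPM in the proximal and 0.749 to 4.46 CPM in the distal libraries, with 13 of 15 genes highest in primary 3. Of these markers 2, 4 and 0 were at 0 counts in primary 1, 2 and 3, and 1 (Klra1) was in proximal 2. Ncr1, a receptor that defines natural killer cells, was at 0 counts in primary 2 and at 0.203 CPM in primary 3, and is named after its values were seen, as is Klra1. B and plasma cell markers summed to 99.3, 6.86 and 118 CPM in primary 1, 2 and 3, to 5.32, 116 and 3.72 CPM in proximal 1, 2 and 3, and to 2.85, 19.2 and 22 CPM in distal 1, 2 and 3, and 8 of 9 were highest in proximal 2. Primary 1 was thus close to primary 3 for B lineage genes, while its CD3 chains summed to 1.74 CPM against 6.88 CPM. Their part in the results on the members was not tested.

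Some of the other cell type lists varied with the CD3 chains, and some did not. Pearson's r between the log2 summed level of a list and that of the 4 CD3 chains, over 9 libraries that share their depth, was 0.819 for pan-leukocyte, 0.783 for macrophage, 0.867 for dendritic cell and 0.721 for endothelial markers. Without primary 3 and proximal 2 these were 0.770, 0.896, 0.848 and 0.965. Epithelial lists reached such values too: r over 9 libraries and without primary 3 and proximal 2 was 0.773 and 0.819 for lung and 0.408 and 0.806 for prostate. In the same order, B and plasma cell markers had 0.747 and 0.435. Natural killer and gamma-delta T cell markers had 0.894 and 0.802, and checkpoint and costimulatory receptors had 0.946 and 0.916. By contrast, r over 9 libraries was 0.234 for the cytotoxic effector list, 0.116 for neutrophil, 0.148 for adipocyte and -0.495 for mast cell markers. The sums of the T cell receptor and signalling list (-0.576) and of the trafficking list (-0.439) also had a negative r. A sum follows its most abundant genes. In primary 1 and the metastases most of the signalling sum was Prkcq, whereas 16 of the 20 genes had primary 3 and proximal 2 on top. Pan-leukocyte genes summed to 110 to 248 CPM in the primary, 46.2 to 156 CPM in the proximal and 66.4 to 216 CPM in the distal libraries, and distal 3 was second to primary 3, although its CD3 chains summed to 1.37 CPM. Neutrophil markers reached 550 CPM in distal 3 and 7.77 to 119 CPM in the other 8 libraries, and 5 of 6 were highest in distal 3. Macrophage markers were highest in primary 2 and primary 3, and all 12 genes were tested with 0 called in any comparison with all 9 libraries. Without primary 1, 7, 4 and 7 of the 12 were called lower in proximal, distal and all metastases against primary. Those fits called 14.9%, 14.1% and 18.6% of all genes lower. Adipocyte markers were highest in proximal 2 (433 CPM), distal 3 (333 CPM) and primary 1 (322 CPM), and stood at 85.0 CPM in primary 3. Whether other leukocytes, endothelium, fat, seminal vesicle or muscle in a sample moved the member levels was not tested.

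**Figure D5:**
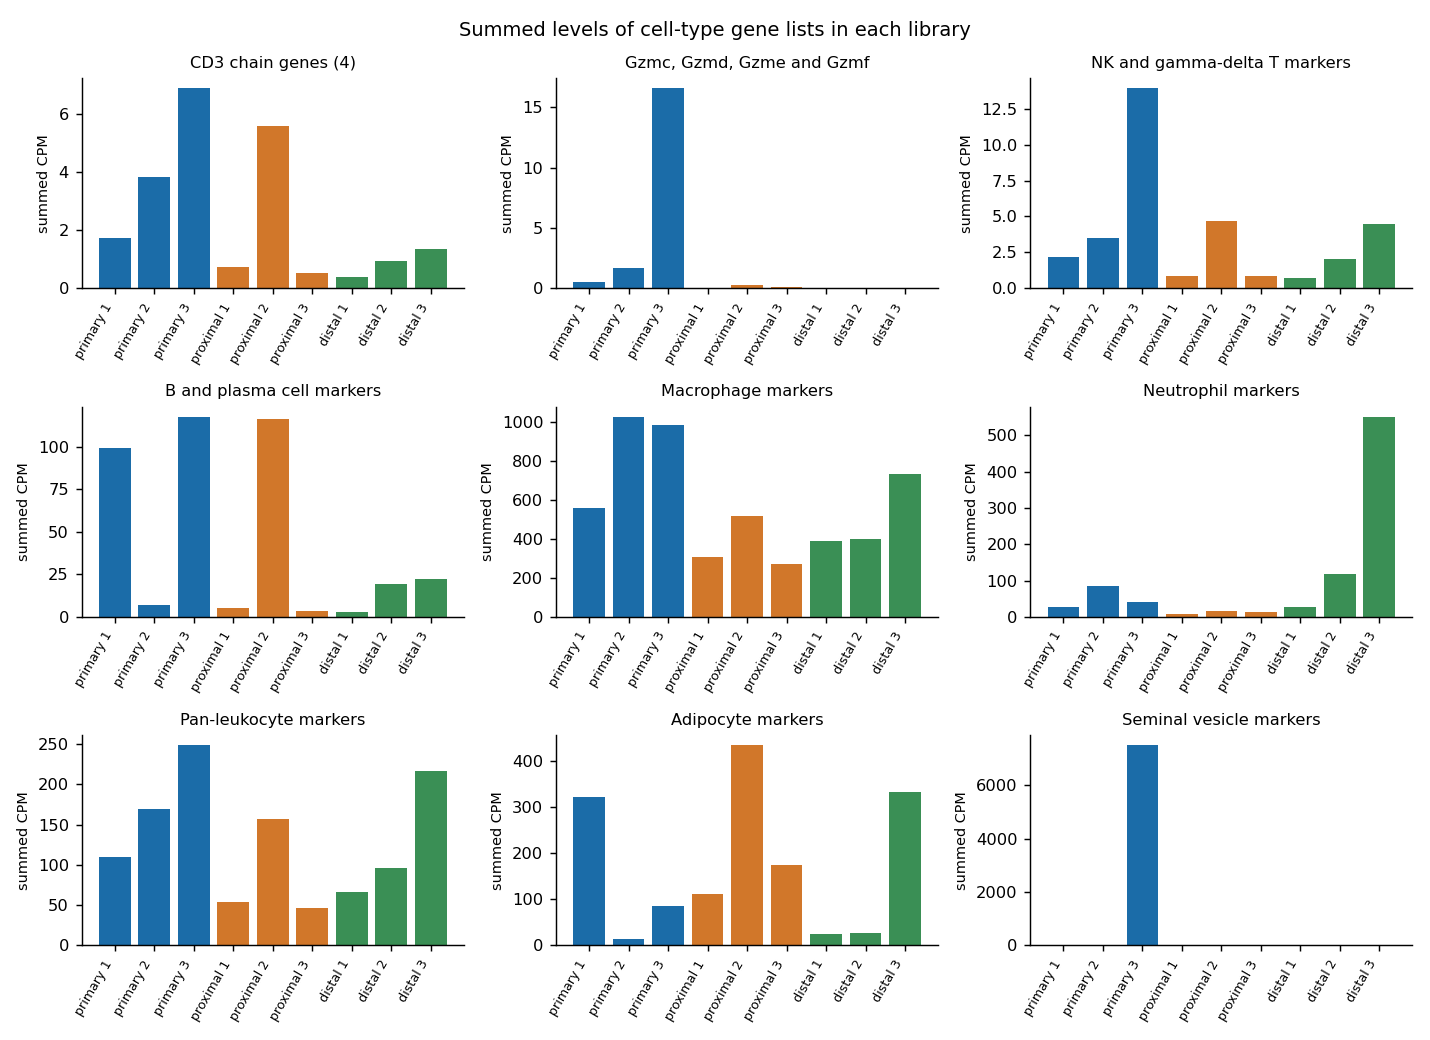
Summed CPM (vertical axes start at 0 and differ between panels) of the 4 CD3 chain genes, of 4 other granzymes of the Gzmb cluster (Gzmc, Gzmd, Gzme and Gzmf) and of 7 marker lists in each library, with primary in blue, proximal in orange and distal in green. The CD3 sum is highest in primary 3 (6.88 CPM) and proximal 2 (5.58 CPM), the cluster granzymes stand out in primary 3, B and plasma markers are high in primary 1, primary 3 and proximal 2, and neutrophil markers are high in distal 3.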

How the data were processed

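The authors deposited 1 file per library with raw counts of reads per Ensembl gene, whole numbers and not normalized. The submitters' processing notes list HTSeq 0.6.0 and DESeq2 1.14.1, run under R 3.2.3, as well as TopHat2 2.1.0 with Bowtie2 2.2.6.0, FastQC 0.11.4 and the build GRCm38.p3. Not given in the sources used here are the strand setting, the annotation and any read filter. Symbols were matched for 46488 of 47069 identifiers, with positions and exon lengths (the union of exons, used for RPKM) from GENCODE on GRCm38.

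From the counts, edgeR 4.0.16 in R 4.3.3 was run on all 9 libraries: filterByExpr by group (minimum count 10, minimum total 15), TMM scaling and the robust quasi-likelihood F-test, with Benjamini-Hochberg adjustment over the 18204 genes that passed and a threshold of 0.05. On simulated data for proximal against primary, the test recovered 56 of 100 genes changed by 1 log2 unit and all 100 changed by 2. That simulation used 1 spread for all genes and groups and changed only genes with a mean above 1 CPM. It therefore does not measure power for the members. SE is the absolute log2 fold change over the square root of F. Scaled levels are CPM, and log2 levels used a pseudocount of 0.5 CPM. Over all tested genes the median SD of log2 levels was 0.492 in the primary, 0.144 in the proximal and 0.138 in the distal libraries. The fit used 1 dispersion per gene, so p-values against primary can be too small for genes with that pattern. For most members the proximal SD was the largest. Cd4 had 0.395, 1.37 and 0.529 and Lck had 0.696, 0.978 and 0.0457 in the primary, proximal and distal libraries. Gzmb and Nkg7 had their largest SD in the primary. For the members, p-values can thus be too small or too large. No library repeated another: chi-square per gene was at least 23.0 for every pair.

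Alternatives were library totals without scaling, size factors from median ratios, no filter, at least 1 CPM in 3 libraries, DESeq2 1.42.0, limma-voom (limma 3.58.1), only the groups compared, and leaving out each library. Named genes were the members, the 4 most abundant genes of a list and its called genes, and the 5 genes most like the CD3 chains. Another engineered allele and 1 of those 5 genes are not reported here. The members and lists were chosen with earlier results of these data known.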

Additional observations from a re-analysis of the deposited data

Results flagged for a closer look

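Among the 6 metastatic libraries, proximal 2 stood apart from the rest for 8 of the 10 members. The gap between proximal 2 and the next library, as a share of the whole range, was 0.8944 for Lck, 0.8552 for Cd8a, 0.8469 for Cd247, 0.8271 for Cd3e, 0.7939 for Cd4, 0.7806 for Cd8b1, 0.7518 for Cd3g and 0.6845 for Cd3d. All of these exceed Dixon's 95% critical value for 6 samples. For Gzmb and Nkg7 the gap was 0.426 and 0.291, although proximal 2 was the highest metastatic library for these as well. Chance sets apart about 1 in 20 groups, and the 8 genes were read from the same libraries, so these are not 8 separate observations.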

How the results depend on the processing

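The number of members called was 0 in all 4 comparisons with all 9 libraries. It stayed 0 for proximal against primary and for distal against proximal under every alternative run. For proximal against primary those runs called from 0 genes (as without proximal 1) to 5447 of 19009 (without primary 1). DESeq2 called 1491 of 18204 genes there. For distal against proximal they called from 0 genes to 83 of 18204 (DESeq2). For distal against primary, leaving out 1 library gave 0 to 1 (1 of 10 without primary 1, where 14.1% of all genes were called lower). In that comparison DESeq2 called 0 of 9 members and 1444 of 18204 genes. For metastases against primary it was 1 of 9 with DESeq2 (Nkg7, with 11.6% of all genes lower), and 0 to 2 when 1 library was left out (2 of 10 without primary 1, with 18.6% of all genes lower). Each alternative changed either the samples or the tool, and the cause was not tested. Estimates of single members changed sign in 26 refits, none of them a called value. For distal against proximal, the 9 fits that left out 1 library ran from -1.74 to 0.054 for Cd3d, -1.25 to 0.17 for Lck, -1.70 to 0.36 for Nkg7, -1.79 to 0.37 for Cd247, -2.23 to 0.37 for Cd8a, -2.30 to 0.92 for Cd4, -2.0 to 1.18 for Cd3e, -2.22 to 1.27 for Cd3g and -2.89 to 2.25 for Cd8b1, each positive only without proximal 2. With primary 3 left out too (added after seeing the data) the last values were 0.054, 0.17, 0.35, 0.37, 0.37, 0.92, 1.18, 1.27 and 2.25 in the same order. For proximal against primary, Cd247 ran from -1.94 to 0.36 (0.36 without primary 3, 0.22 without proximal 1, 0.17 without proximal 3), Cd4 from -2.96 to 0.056 (without proximal 3) and Lck from -1.17 to 0.52 (0.52, 0.14 and 0.25 without primary 3, proximal 1 and proximal 3). For metastases against primary, Lck ran from -1.09 to 0.082 (without primary 3). The filter of at least 1 CPM in 3 libraries left 5 members to test, and the fit of the compared groups alone left 4 in distal against proximal. No paired analysis was possible because the labels do not say which samples came from the same mouse. Depth limits the lowest values: a count of 0 allows a level of up to 3 counts (0.0714 to 0.117 CPM), and levels from so few counts are imprecise.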
